A study of Homo sapiens with 16 samples.

Results

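Cells of the human breast cancer line CAL51 exposed to 3 µM CC-671 for 6 h were compared with cells given the vehicle DMSO for 6 h, across all genes. The comparison rests on 5 of the 16 RNA-seq libraries in the series, chosen by their titles: 3 treated libraries and 2 DMSO libraries, described by the labels as biological replicates. CAL51 is an established triple-negative line with a near-diploid karyotype and a tetraploid fraction; every group was at passage 10 in the same serum-containing DMEM, and no group carried a genetic change made for the study. The groups set beside this comparison were 10 µM CC-671 for 6 h (3 libraries), 3 µM CC-671 for 24 h (3 libraries) and DMSO for 24 h (2 libraries). All replicates share the genotype of this line, so the p-values speak only of variation among these cultures.

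CC-671 is an inhibitor of 2 kinase targets, TTK and CLK2. TTK, also called MPS1, is a kinase of the spindle assembly checkpoint, which holds cells in mitosis until chromosomes are attached. CLK2 belongs to the CLK family, which phosphorylates the serine- and arginine-rich (SR) proteins that guide the spliceosome to exons and gather in nuclear speckles. Splicing is coupled to transcription by RNA polymerase II and to cleavage of the RNA at its 3′ end, where transcription normally stops before the next gene. Other CLK inhibitors are known to alter splicing and to give RNAs that join neighbouring genes.

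The 5 libraries held 112523731 to 123789361 read pairs assigned to gene symbols, with 28215 to 28538 symbols detected in treated libraries and 27508 to 27673 in DMSO libraries. Counting error was therefore small for all but the lowest genes. The pairs that fell outside annotated exons made up 5.67 to 6.35% of the placed pairs of each treated library against 4.38 to 4.76% of each DMSO library, with no overlap between the groups. Pairs that were unaligned, aligned to several places or of low alignment quality were not counted in this base. Log2 levels of treated libraries correlated at 0.9992 to 0.9993 with each other across genes, and at 0.987 to 0.989 with DMSO libraries. No pair of libraries within a group agreed within counting noise, so each was counted as its own replicate. Among markers of the labelled tissue, 3 of 7 tested epithelial markers rose and 1 fell, and their summed level was 1862 to 1926 CPM (counts scaled to a common library total) at 3 µM and 1807 to 1827 CPM in DMSO. The basal keratin KRT5 had no read in any of the 5 libraries, and the hormone receptors ESR1 and PGR stayed under 0.1 CPM; the breast receptor list summed to 89.5 to 95.4 CPM at 3 µM and 178.5 to 189 CPM in DMSO, nearly all of it ERBB2.

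At 3 µM and 6 h, 13909 of 22007 tested genes changed, which is 63.2% of them. The changed genes were those with an adjusted p under 0.05 in edgeR's quasi-likelihood test with Benjamini-Hochberg adjustment. They divided almost evenly, with 6960 higher (31.6% of tested genes) and 6949 lower (31.6%), and the median log2 fold change over all tested genes was 0.02. In bulk RNA, fewer cells of a kind and less RNA per cell cannot be told apart. A change of at least 2-fold was found for 1870 genes that rose and 1083 that fell, and one of at least 4-fold for 889 that rose and 79 that fell. The treated and DMSO values did not overlap for 98.5% of changed genes, against 72.7% of all tested genes. Among coding genes that averaged 1 CPM or more in DMSO, 32.7% rose and 45% fell, which is the background for lists of expressed genes.

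Large rises, unlike large falls, were found mostly among genes of low expression. Of the 22007 tested genes, 7889 averaged under 1 CPM in DMSO and 4025 lay between 1 and 10 CPM. Another 10093 averaged 10 CPM or more. Of the 1870 genes that rose at least 2-fold, 1671 averaged under 1 CPM in DMSO, 158 lay between 1 and 10 CPM and 41 averaged 10 CPM or more. Of the 1083 that fell at least 2-fold, 427 were under 1 CPM, 170 between 1 and 10 CPM and 486 at 10 CPM or more. A gene under 1 CPM could enter the test through any of the 6 groups of the series in which it was high, so shares among the low genes do not describe all silent genes. With the test limited to genes of at least 1 CPM in 5 libraries, the counts were 539 rises and 585 falls of at least 2-fold.

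**Figure D1:**
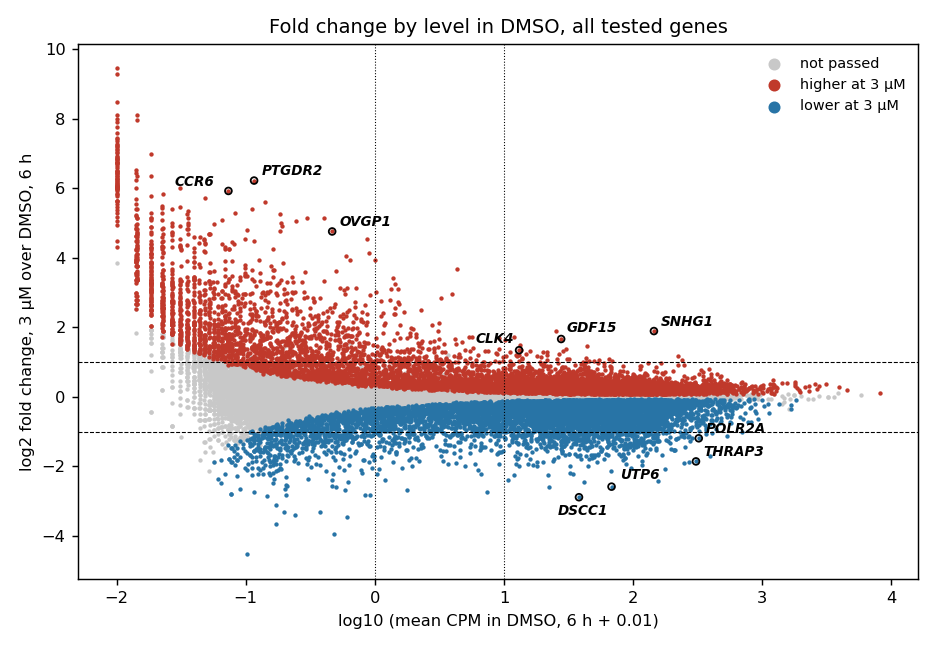
Log2 fold change at 3 µM over DMSO at 6 h (vertical) against the log10 mean level in DMSO at 6 h in CPM (horizontal), one point per tested gene, with dotted lines at 1 and 10 CPM and dashed lines at 2-fold. The points above the upper dashed line lie mostly left of 1 CPM. Of the 1083 points below the lower line that passed the test, 486 lie right of 10 CPM. Of the 22007 tested genes, 10093 lie there. Fold changes of genes with no read in DMSO, the leftmost column, depend on a small added count.

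Among genes whose log2 CPM averaged 1 or more across the 16 libraries, symbols of clones and small RNAs left out, the largest rises were of genes with few reads in DMSO cells. Several of them are known for functions in other tissues. OVGP1, which encodes an oviduct glycoprotein, had 12.7, 12.6 and 11.9 CPM at 3 µM, against 0.476 and 0.439 CPM in DMSO. Its log2 fold change was 4.76 ± 0.11 (standard error) with an adjusted p of 3.74e-23 in edgeR. BAAT, the liver enzyme that joins bile acids to glycine or taurine, had 5.60, 6.45 and 5.29 CPM at 3 µM, against 0.142 and 0.215 CPM in DMSO, a log2 fold change of 5.01 ± 0.16. All treated libraries lay far above both DMSO libraries for both genes. CMYA5, a muscle protein gene, had 9.27, 8.02 and 6.76 CPM at 3 µM, against 0.250 and 0.224 CPM in DMSO. CCDC13, a coiled-coil protein gene, had 20.3, 20.7 and 18.8 CPM at 3 µM, against 0.834 and 0.878 CPM in DMSO, and C2orf48 had 16.0, 15.8 and 14.7 CPM at 3 µM, against 0.793 and 0.981 CPM in DMSO. Their log2 fold changes were 5.07 ± 0.20 for CMYA5, 4.54 ± 0.09 for CCDC13 and 4.13 ± 0.09 for C2orf48. ADCY10, which encodes soluble adenylyl cyclase, rose by 4.78 ± 0.18 and the pseudogene PKMP3 by 4.91 ± 0.13 on the log2 scale. The others among the 12 largest rises above that limit were PTGDR2 (6.22 ± 0.15), CCR6 (5.92 ± 0.27), LTA (5.60 ± 0.18), SELPLG (5.27 ± 0.15) and DCAF4L1 (5.15 ± 0.16).

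Each of these 12 genes lies after a gene that CAL51 cells express, on the same strand and within 34.8 kb in the GENCODE 29 annotation. Genes that overlap another gene of 10 CPM or more in DMSO were not left out of the 12. PTGDR2, at 34.8 kb from PRPF19, has such an overlap, so its count is uncertain. This did not hold for all large rises under the abundance limit. SYNDIG1L had 1.44, 1.61 and 1.39 CPM at 3 µM, against 0 and 0.00861 CPM in DMSO, and lies 50.1 kb past the nearest such gene. SLC45A2, which averaged 1.35 CPM at 3 µM and 0.0043 CPM in DMSO, and SAMSN1, which averaged 1.07 CPM at 3 µM and 0.0256 CPM in DMSO, lie 920.5 and 302.4 kb past theirs; these examples were chosen after their values were seen. OVGP1 starts 12.1 kb past the end of WDR77, which encodes a partner of the methyltransferase PRMT5. CCDC13 starts 11.0 kb past HIGD1A, and C2orf48 starts 9.96 kb past RRM2, a subunit of ribonucleotide reductase. CMYA5 lies 3.23 kb past PAPD4, BAAT 4.11 kb past MRPL50, ADCY10 2.51 kb past MPC2 and PKMP3 0.344 kb past the snoRNA host SNHG5. The upstream gene did not rise with its neighbour in most pairs. Of the 12 upstream genes, 9 fell, 2 rose and 1 did not pass the test, beside 47.5% of tested genes of 10 to 100 CPM in DMSO and 43.9% of those above 100 CPM that fell. WDR77 had 28.2, 28.98 and 31.3 CPM at 3 µM, against 60.2 and 60.2 CPM in DMSO, while OVGP1 beyond it rose. HIGD1A fell by 0.74 ± 0.04 and RRM2 by 0.34 ± 0.03 on the log2 scale, whereas SNHG5 rose by 0.46 ± 0.04 and CORO1C, upstream of SELPLG, by 0.15 ± 0.03. Whether the reads at the 12 genes come from RNAs begun at the upstream gene was not tested, since gene counts hold no junctions.

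The same arrangement was examined for all protein-coding genes that averaged under 0.5 CPM in DMSO at 6 h and overlapped no gene of 10 CPM or more. There were 5735 such near-silent genes, and 61 of them (1.06%) averaged at least 1 CPM at 3 µM. In DMSO at 24 h, in libraries that did not enter the choice, 0 of the 5735 genes reached 1 CPM. The share that reached 1 CPM at 3 µM fell with distance from the nearest expressed gene before it on the same strand. It was 8.29% within 5 kb (18 of 217 genes), 5.59% from 5 to 10 kb (8 of 143), 4.29% from 10 to 20 kb (10 of 233), 1.78% from 20 to 50 kb (9 of 506), 1.14% from 50 to 100 kb (6 of 525) and 0.247% beyond that (10 of 4043). For an expressed same-strand gene after the near-silent gene the share was 2.60% within 5 kb and 0.830% beyond 100 kb. For one before it on the other strand it was 2.21% within 5 kb and highest, 4.82%, from 10 to 20 kb. The starting levels differed too. With a same-strand gene before, the median in DMSO at 6 h was 0.0722 CPM within 5 kb. It was 0.0214 CPM from 20 to 50 kb and 0 CPM beyond 100 kb. With a same-strand gene after, it was 0.0295 CPM within 5 kb. The shares were not adjusted for these levels, and a higher start lies closer to 1 CPM. Of the 61 genes, 45 (73.8%) had an expressed same-strand gene within 50 kb before them, against 19.2% of all 5735. For a gene after them the shares were 29.5% and 17.1%. OVGP1, DCAF4L1, CMYA5, SELPLG, LTA, BAAT, ADCY10 and CCR6, in which the arrangement was first seen, are among the 45. The shares therefore partly count the same genes again and are no independent test of it.

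Further pairs among the 61 genes included GUCA1B, a photoreceptor calcium sensor, after MRPS10, and SPDEF, an epithelial transcription factor, after C6orf106. GUCA1B had 5.54, 6.48 and 6.01 CPM at 3 µM, against 0.426 and 0.559 CPM in DMSO. MRPS10, a mitochondrial ribosomal protein gene, fell by 0.73 ± 0.03 on the log2 scale. Other pairs were RRH and LRIT3 after GAR1, HAL after LTA4H, GRK7 after RNF7 and CNDP1 after CNDP2. Near-silent genes within 20 kb of a same-strand gene before them reached 1 CPM in 3.37% of cases (6 of 178) where that gene had 10 to 30 CPM, 7.22% (19 of 263) at 30 to 100 CPM and 7.24% (11 of 152) at 100 CPM or more.

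**Figure D2:**
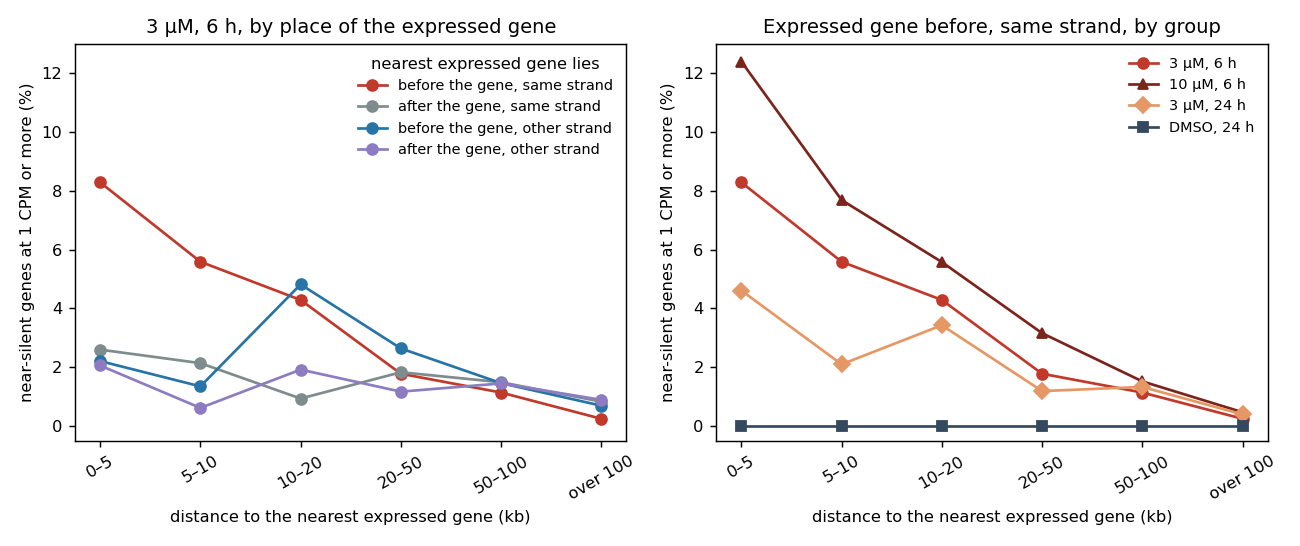
Percentage of near-silent coding genes (under 0.5 CPM in DMSO at 6 h) that averaged 1 CPM or more, by distance in kb to the nearest expressed gene; left, at 3 µM and 6 h by the side and strand of that gene, right, for a same-strand gene before it in 4 groups. The share is highest, 8.29%, for the shortest distance from a same-strand gene before it and is 0 at every distance in DMSO at 24 h.

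At the extreme of low expression, 66 gene symbols had no read in either DMSO library at 6 h and at least 5 reads in each treated library, and 0 symbols showed the reverse. HAND2-AS1, an antisense RNA of the cardiac factor HAND2, had 73, 89 and 71 reads at 3 µM and 0 and 0 in DMSO, at least 54.2-fold higher against a floor of 3 reads over the DMSO group. NCKAP1L, a subunit of the actin-regulating WAVE complex of blood cells, had 35, 36 and 31 reads at 3 µM and 0 and 0 in DMSO, at least 23.7-fold higher. Both were chosen after their values were seen. Of the 66 symbols, 59 had at least 5 reads in each 10 µM library at 6 h and 14 in each 3 µM library at 24 h, and none exceeded 4 reads in a DMSO library at 24 h.

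Several of the raised genes are markers of blood cells, so markers of other cell types were examined as whole lists. Of 11 leukocyte markers, 6 were tested, 4 rose and 0 fell, and their summed level was 12.1 to 12.4 CPM at 3 µM and 10.83 to 10.86 CPM in DMSO. Low genes could enter the test through any group in which they were high, so these counts may favour rises. Of the markers that rose, CSF1R averaged 0.017 CPM and LYZ 0.051 CPM in DMSO. Among tested genes under 0.1 CPM in DMSO, 40.4% rose and 1.57% fell. CD14, the monocyte co-receptor for lipopolysaccharide, had 1.58, 1.94 and 1.54 CPM at 3 µM, against 0.175 and 0.129 CPM in DMSO. PTPRC, the leukocyte antigen CD45, averaged 9.27 CPM at 3 µM and 9.93 CPM in DMSO and did not pass the test (adjusted p 0.162, edgeR). The lymphocyte markers MS4A1 and NKG7 had no read in any of the 5 libraries. Fibroblast markers, 3 of 6 higher and 1 lower, summed to 320 to 321 CPM at 3 µM and 278 to 290 CPM in DMSO, with DCN and FAP under 0.1 CPM. Mesenchymal markers summed to 1692 to 1971 CPM at 3 µM and 1772 to 1998 CPM in DMSO, with 2 of 7 higher and 2 lower. Of 3 tested endothelial markers 0 rose and 1 fell, and KDR was under 0.1 CPM. The part of these markers' cell types in the rises was not tested.

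Only 41 genes that averaged 10 CPM or more in DMSO rose at least 2-fold, and non-coding RNAs and regulators of transcription stood among the largest. LINC00641 had 107, 87.8 and 90.3 CPM at 3 µM, against 23.7 and 27.0 CPM in DMSO (log2 fold change 1.90 ± 0.08). SNHG1, host of several small nucleolar RNAs (snoRNAs), had 517, 564 and 530 CPM at 3 µM, against 145 and 144 CPM in DMSO (1.89 ± 0.04, adjusted p 2.1e-21 in edgeR). GDF15, a stress-induced secreted factor, had 80.7, 95.9 and 86.5 CPM at 3 µM, against 28.7 and 26.7 CPM in DMSO (1.66 ± 0.09). The treated libraries exceeded the DMSO libraries for each of these genes. The zinc finger gene ZNF557 rose by 1.62 ± 0.05 and HINFP, a transcription factor of histone genes, by 1.31 ± 0.05 on the log2 scale. The HOXA-cluster RNA HOTAIRM1 rose by 1.38 ± 0.04, and YAF2, a Polycomb-associated protein gene, by 1.31 ± 0.04. DCUN1D2 rose by 1.49 ± 0.05 and ANKRD10 by 1.46 ± 0.05. Of 479 tested genes whose symbols begin with ZNF, the large family of zinc finger proteins, 237 rose (49.5%) and 132 fell (27.6%). Their median log2 fold change was 0.12 and their median exon number 5. These shares lie near those of coding genes of 1 CPM or more with similar exon numbers. With 2 to 4 exons 49.5% of such genes rose and 25.1% fell, and with 5 to 8 exons 44.5% rose and 32.2% fell.

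All 4 genes of the CLK family rose. CLK4 had 31.9, 33.4 and 34.0 CPM at 3 µM, against 12.7 and 13.4 CPM in DMSO, a log2 fold change of 1.34 ± 0.05. The targeted CLK2 had 63.2, 59.3 and 58.3 CPM at 3 µM, against 51.8 and 52.1 CPM in DMSO, the smallest rise of the family at 0.21 ± 0.06. Of 12 other tested kinases of SR proteins, 5 rose and 3 fell, beside 31.6% of all tested genes in each direction. PRPF4B, a spliceosomal kinase, rose by 0.55 ± 0.03 and HIPK1, a nuclear kinase, fell by 0.91 ± 0.04 on the log2 scale.

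**Figure D3:**
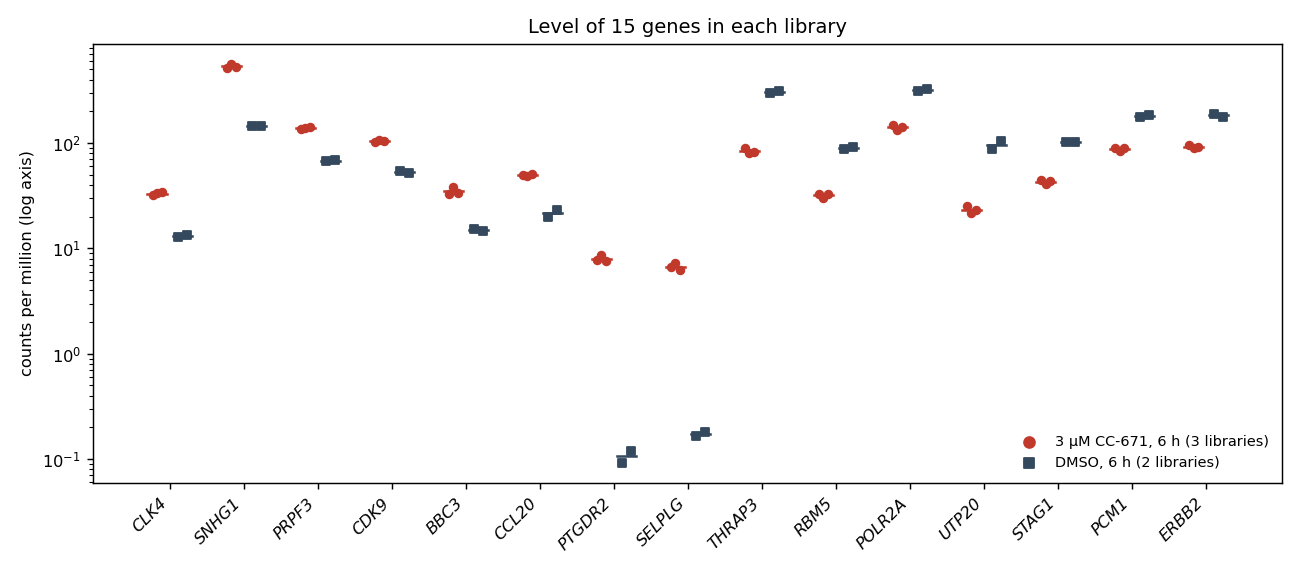
Level in CPM (log axis) of 15 genes in each library, with circles for the 3 libraries at 3 µM and 6 h and squares for the 2 DMSO libraries at 6 h, and a line at each group's mean. The circles lie above the squares for CLK4 through SELPLG and below them for THRAP3 through ERBB2.

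Of 18 tested hosts of snoRNAs 13 rose and 4 fell, beside 31.6% of tested genes in each direction, and their median log2 fold change was 0.28. ZFAS1 had 111, 114 and 107 CPM at 3 µM, against 61.3 and 58.7 CPM in DMSO (0.89 ± 0.04). EPB41L4A-AS1 rose by 0.90 ± 0.06, SNHG15 by 0.74 ± 0.05 and GAS5 by 0.21 ± 0.05 on the log2 scale. SNHG12 went the other way, with 17.7, 16.7 and 16.0 CPM at 3 µM, against 24.2 and 24.3 CPM in DMSO. Many snoRNA hosts share with genes of the translation machinery a start at a C followed by further pyrimidines, the terminal oligopyrimidine (TOP) start. The 2 elongation factor genes EEF1A1 and EEF2, textbook TOP genes, averaged 4065 and 2398 CPM at 3 µM, against 3140 and 1793 CPM in DMSO; EEF1A1 has many near-identical pseudogene copies, so its counts are uncertain.

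The start windows of 7 of these genes are printed to show how the annotated starts differ among hosts that rose and SNHG12, 1 of the 4 that fell, and how they compare with the elongation factors. Each runs from 20 bases before to 10 bases after the annotated start in RefSeq (GRCh38.p14), 5′ to 3′ on the gene's strand, with the uninterrupted pyrimidines from the start in capitals.
SNHG1, chr11:62855876-62855905, minus strand: tctccccggggagattcgttCTCatttttc
ZFAS1, chr20:49278622-49278651, plus strand: ggttcaggaagccattcgttCTTTCgcgtc
SNHG5, chr6:85678724-85678753, minus strand: tactggctgcgcacttcggtCTTTTacgtc
GAS5, chr1:173869036-173869065, minus strand: gtcgatgccatcatgaattcagatgtgttt
SNHG12, chr1:28581864-28581893, minus strand: cttgctcgcggcttcagcgcCCTTTCTCCC
EEF1A1, chr6:73521023-73521052, minus strand: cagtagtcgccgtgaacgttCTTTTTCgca
EEF2, chr19:3985454-3985483, minus strand: tgagtgttgacgtcagcgttCTCTTCCgcc
The run counted 3 bases in SNHG1, 5 in ZFAS1 and in SNHG5, 7 in EEF1A1 and in EEF2, and 11 in SNHG12, where it goes on past the printed window. It counted 0 in GAS5. The run was 0 in 8 of the 14 hosts with a RefSeq window, among them EPB41L4A-AS1, SNHG16 and SNHG17, which rose. For each gene a single annotated start was read, which need not be the start used in these cells. A run of 0 therefore does not show that a gene lacks a TOP start. A C followed by at least 4 pyrimidines stood at the start of 4.04% of RefSeq promoters (1104 of 27305). Among genes of 10 CPM or more in DMSO, the 436 with such a start had 183 members higher and 179 lower with a median log2 fold change of 0.01. The 7074 without it had 2314 higher and 3412 lower with a median of -0.07.

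The splicing machinery changed in both directions, as did coding genes of 1 CPM or more at large, of which 32.7% rose and 45% fell. Of 14 tested SR splicing factors, 5 rose and 8 fell, with SRSF7 at 117, 127 and 133 CPM at 3 µM, against 288 and 286 CPM in DMSO (-1.19 ± 0.05). Among 34 SR-related proteins of nuclear speckles 20 rose and 8 fell, with a median of 0.17. Speckle proteins RBM39 and PNN each rose by 0.92 ± 0.03 on the log2 scale, PRPF38B by 0.89 ± 0.03 and the splicing coactivator SRRM1 by 0.74 ± 0.03. THRAP3, which takes part in splicing and in nuclear mRNA decay, had 89.3, 81.0 and 83.0 CPM at 3 µM, against 300.3 and 313 CPM in DMSO, a log2 fold change of -1.86 ± 0.05. Its close relative BCLAF1 fell by 0.72 ± 0.04.

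Among regulators outside the SR family, 13 of 34 tested members of the list of hnRNPs and other splicing regulators rose and 15 fell. These counts lie near the shares of coding genes of 1 CPM or more, 32.7% higher and 45% lower. The largest falls were those of RBM5 and RBM10, related regulators of exon skipping. RBM5 had 33.2, 30.02 and 32.6 CPM at 3 µM, against 88.1 and 91.8 CPM in DMSO. RBM10 had 37.1, 37.3 and 38.5 CPM at 3 µM, against 105 and 98.1 CPM in DMSO. Both were far lower in every treated library than in either DMSO library. PTBP2, the neuronal polypyrimidine tract binding protein, rose by 0.88 ± 0.04 on the log2 scale. In the core spliceosome 24 of 45 rose and 16 fell. PRPF3, of the U4/U6 particle, had 137, 138 and 142 CPM at 3 µM, against 68.1 and 68.6 CPM in DMSO. The helicase gene AQR fell by 0.97 ± 0.04.

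POLR2A, which encodes the largest subunit of RNA polymerase II, fell more than 2-fold. It had 148, 134 and 141 CPM at 3 µM, against 314 and 330 CPM in DMSO, a log2 fold change of -1.20 ± 0.07. Of 29 kinases of its C-terminal domain and elongation factors, 11 rose and 15 fell. Beside this list and those given next stand 32.7% of coding genes of 1 CPM or more that rose and 45% that fell. CDK9, the kinase that releases paused polymerase, had 103, 107 and 104 CPM at 3 µM, against 54.6 and 52.2 CPM in DMSO. MNAT1, a subunit of the CDK7 kinase, fell by 1.27 ± 0.05 and the elongation factor SUPT5H by 0.72 ± 0.06 on the log2 scale. In RNA 3′ end processing 7 of 23 rose and 15 fell, with a median of -0.16. The falls included CPSF4 (-1.04 ± 0.05), CPSF6 (-0.76 ± 0.04) and NUDT21 (-0.71 ± 0.03), of the complexes that recognise the polyadenylation signal and its surroundings, and the poly(A) polymerase PAPOLA (-0.67 ± 0.03). CLP1, an RNA kinase of the cleavage machinery, rose by 0.80 ± 0.05. In mRNA export 9 of 18 rose and 7 fell, led by the fall of PCID2 and the rise of CHTOP (0.89 ± 0.03). In nonsense-mediated decay 5 of 18 rose and 9 fell, with SMG9 at -0.92 ± 0.04 and UPF1, its central helicase, at -0.45 ± 0.04.

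From 2 exons upward, the share of genes that fell was larger in each class of higher exon number. Over coding genes of at least 1 CPM in DMSO, the median log2 fold change was 0.12 for 2 to 4 exons (2079 genes, 49.5% higher and 25.1% lower). It was -0.11 for 9 to 16 exons, -0.31 for 17 to 32 exons (69.1% lower) and -0.43 for 33 or more exons (462 genes, 7.36% higher and 73.8% lower). Long genes hold more exons, and the medians also went down with gene span, being 0.15 under 5 kb and -0.27 over 200 kb. Within 1 range of spans the order by exon number remained: among genes of 50 to 100 kb the median was 0.06 for 2 to 4 exons and -0.31 for 17 to 32 exons. The 486 expressed genes that fell at least 2-fold had a median of 17 exons, and the 41 that rose had a median of 4.

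**Figure D4:**
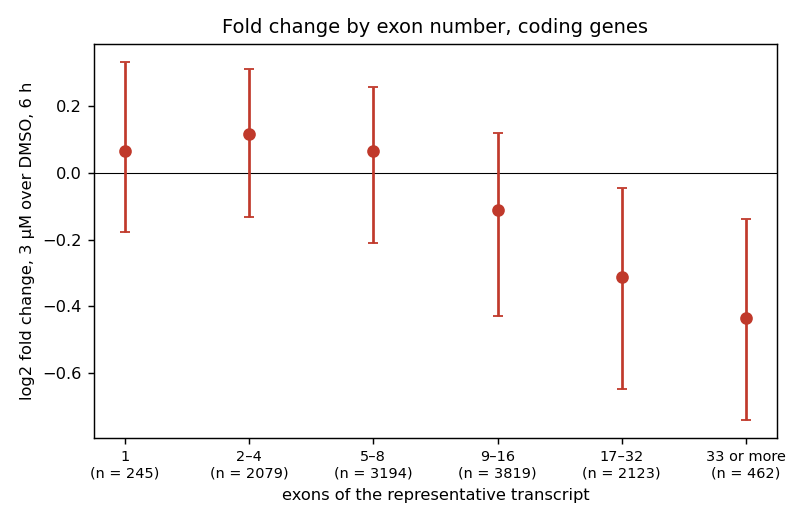
Median log2 fold change at 3 µM over DMSO at 6 h (points) with the 25th and 75th percentiles (bars) for coding genes of at least 1 CPM in DMSO, by the number of exons of the representative transcript. The median is 0.12 for 2 to 4 exons and -0.43 for 33 or more exons.

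Deep falls were found among genes of varied function. TRAPPC13, a subunit of a vesicle tethering complex, had 7.15, 6.90 and 7.65 CPM at 3 µM, against 33.9 and 34.2 CPM in DMSO (-2.24 ± 0.05, adjusted p 1.49e-23 in edgeR). UBLCP1, a phosphatase of the nuclear proteasome, had 16.0, 14.4 and 15.7 CPM at 3 µM, against 66.0 and 68.1 CPM in DMSO (-2.12 ± 0.04). No treated value of either gene came near a DMSO value. SFR1, of a complex that assists homologous recombination, fell by 2.25 ± 0.06 on the log2 scale, and the RNA pseudouridine synthase homologue PUS7L by 2.24 ± 0.07. DLX6-AS1 fell by 2.40 ± 0.07, PLCG2, a phospholipase, by 2.24 ± 0.07, and ANKRD26 by 2.21 ± 0.05. Counted in CPM lost, the falls were largest in abundant genes: TPM1, a tropomyosin, averaged 1305 CPM at 3 µM and 1680 CPM in DMSO, SFPQ, a paraspeckle protein, 346 CPM at 3 µM and 694 CPM in DMSO, and KPNB1, a nuclear import receptor, 497 CPM at 3 µM and 823 CPM in DMSO. CSE1L, which returns importin alpha to the cytoplasm, had 122, 113 and 128 CPM at 3 µM, against 399 and 393 CPM in DMSO.

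Genes of chromosome cohesion, centrioles and kinesin motors fell in larger number than they rose. In sister chromatid cohesion 5 of 29 rose and 20 fell, beside 32.7% and 45% of coding genes of 1 CPM or more, and the median was -0.31. STAG1, a cohesin subunit, had 44.3, 40.8 and 43.7 CPM at 3 µM, against 102 and 103 CPM in DMSO. WDHD1, a replisome scaffold, fell by 1.35 ± 0.04 and the cohesin subunit SMC1A by 0.60 ± 0.04 on the log2 scale, whereas CDCA5, which stabilises cohesin on chromatin as sororin, rose by 0.80 ± 0.03. In centriole duplication 3 of 22 rose and 13 fell, with a median of -0.37. PCM1, the scaffold of centriolar satellites, had 89.4, 83.3 and 90.3 CPM at 3 µM, against 176 and 184 CPM in DMSO. CEP192, a recruiter of centriolar material, fell by 1.02 ± 0.04, while PLK4, the kinase that starts centriole duplication, averaged 99.3 CPM at 3 µM and 96.8 CPM in DMSO and did not pass the test (adjusted p 0.341, edgeR). Of 38 tested genes with KIF symbols, the kinesin motors, 5 rose and 24 fell (63.2%) with a median of -0.34. These genes have a median of 21 exons, and of all coding genes with 17 to 32 exons 69.1% fell, with a median of -0.31. KIF11, the motor that separates spindle poles, fell by 0.75 ± 0.04. TTK, the checkpoint kinase that CC-671 targets, rose by 0.36 ± 0.04. Among 21 tubulin and tubulin cofactor genes 8 rose and 6 fell, with TBCE, a tubulin folding cofactor, at -1.06 ± 0.04.

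Of 40 genes of the processome that makes the small ribosomal subunit, 13 rose and 22 fell, with a median of -0.23. Of coding genes of 1 CPM or more, 32.7% rose and 45% fell. The counts of peroxisome genes and respiratory assembly factors given next lie near those shares. UTP20 had 25.4, 21.8 and 22.9 CPM at 3 µM, against 87.9 and 105 CPM in DMSO, and UTP14A had 12.9, 12.96 and 13.7 CPM at 3 µM, against 44.8 and 45.6 CPM in DMSO. UTP23 rose by 0.60 ± 0.04 on the log2 scale. Of 16 peroxisome biogenesis genes 5 rose and 8 fell, and PEX11A, which takes part in peroxisome division, had 5.003, 6.01 and 6.00 CPM at 3 µM, against 3.27 and 3.003 CPM in DMSO (0.85 ± 0.09). Of 44 assembly factors of respiratory complexes 15 rose and 19 fell, and NDUFAF5, for complex I, had 44.1, 46.2 and 44.7 CPM at 3 µM, against 21.2 and 22.1 CPM in DMSO. Of the 13 mRNAs encoded in mitochondrial DNA, 0 rose and 1, MT-ND6, fell (-0.45 ± 0.15, adjusted p 0.025, edgeR). That call was lost without DMSO replicate 2 (adjusted p 0.249), without 3 µM replicate 2 (0.0768) or 3 (0.0642), and with only the groups compared in the edgeR fit (0.0709).

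Of 23 growth factor receptor kinases 4 rose and 13 fell, with a median of -0.27, beside 32.7% of coding genes of 1 CPM or more that rose and 45% that fell. Without DMSO replicate 1 only 1 of them rose. The counts of lower YAP, BMP and ERK list members given next lie near that share. ERBB2 had 95.3, 89.4 and 92.5 CPM at 3 µM, against 189 and 178 CPM in DMSO, and ERBB3, MET and EGFR fell by 0.67 ± 0.05, 0.59 ± 0.03 and 0.43 ± 0.05 on the log2 scale. ERBB4 rose by 0.23 ± 0.06. In the list of atypical protein kinase C and polarity 3 of 20 rose and 13 fell, with PRKCZ at -0.97 ± 0.06 and the tight junction scaffold INADL at -0.85 ± 0.05. Targets and partners of the growth regulator YAP had 3 of 22 higher and 10 lower; TEAD2, a DNA-binding partner of YAP, fell by 1.09 ± 0.04 and TEAD4 by 0.94 ± 0.04. Among BMP and TGF-beta targets 7 of 25 rose and 11 fell. ID1 and ID3, inhibitors of differentiation factors, each rose by 0.56 ± 0.03, and BMP5, a ligand, fell by 1.44 ± 0.10. Of 19 feedback genes of ERK signalling 4 rose and 8 fell.

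Of 18 BCL2 family genes 5 rose and 4 fell, shares under the 31.6% of all tested genes in each direction. The pro-apoptotic BBC3 (PUMA) had 32.6, 38.7 and 33.3 CPM at 3 µM, against 15.2 and 14.5 CPM in DMSO, and PMAIP1 (NOXA) rose by 0.93 ± 0.07 on the log2 scale. Of the pro-survival members, BCL2L2 fell by 1.19 ± 0.05 and BCL2 by 0.67 ± 0.04. Among 33 immediate early genes 12 rose and 4 fell, with BTG2, an antiproliferative gene, at 1.03 ± 0.04 and IER5 at 0.86 ± 0.04. Of 29 heat shock genes 14 rose and 6 fell, including the cochaperones DNAJB1 (0.55 ± 0.10) and BAG3 (0.62 ± 0.12), whereas HSPA1B, an inducible HSP70, had 0.394, 0.526 and 0.524 CPM at 3 µM, against 1.46 and 1.45 CPM in DMSO; HSPA1B has a near-identical copy and its counts are uncertain. Of 25 cytokines and chemokines 5 rose and 3 fell, and CCL20, which attracts cells bearing CCR6, had 49.3, 48.5 and 50.6 CPM at 3 µM, against 19.7 and 23.2 CPM in DMSO. Their shares were also under those of all tested genes. With only the groups compared in the fit 11 of that list rose, and without DMSO replicate 1 only 3 did. Among 19 circadian genes 9 rose and 4 fell, with TEF at 0.57 ± 0.06, PER1 at 0.44 ± 0.05, CLOCK at -0.97 ± 0.04 and PER3 at -0.89 ± 0.06. Without DMSO replicate 1 only 5 rose. Of 20 chemokine receptors counted, 6 were tested, of which 4 rose and 0 fell. Of 18 TNF ligands 12 were tested, with 4 higher and 3 lower, and of 9 prostanoid receptors 5, with 1 higher and 1 lower. The share of all tested genes was 31.6% in each direction. Low genes of these lists could enter the test through any group in which they were high, so the counts may favour rises. Among tested genes under 0.1 CPM in DMSO, 40.4% rose and 1.57% fell. Of 31 proteasome subunits 13 rose and 9 fell, with PSMD4, a ubiquitin receptor, at -0.79 ± 0.03.

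**Figure D5:**
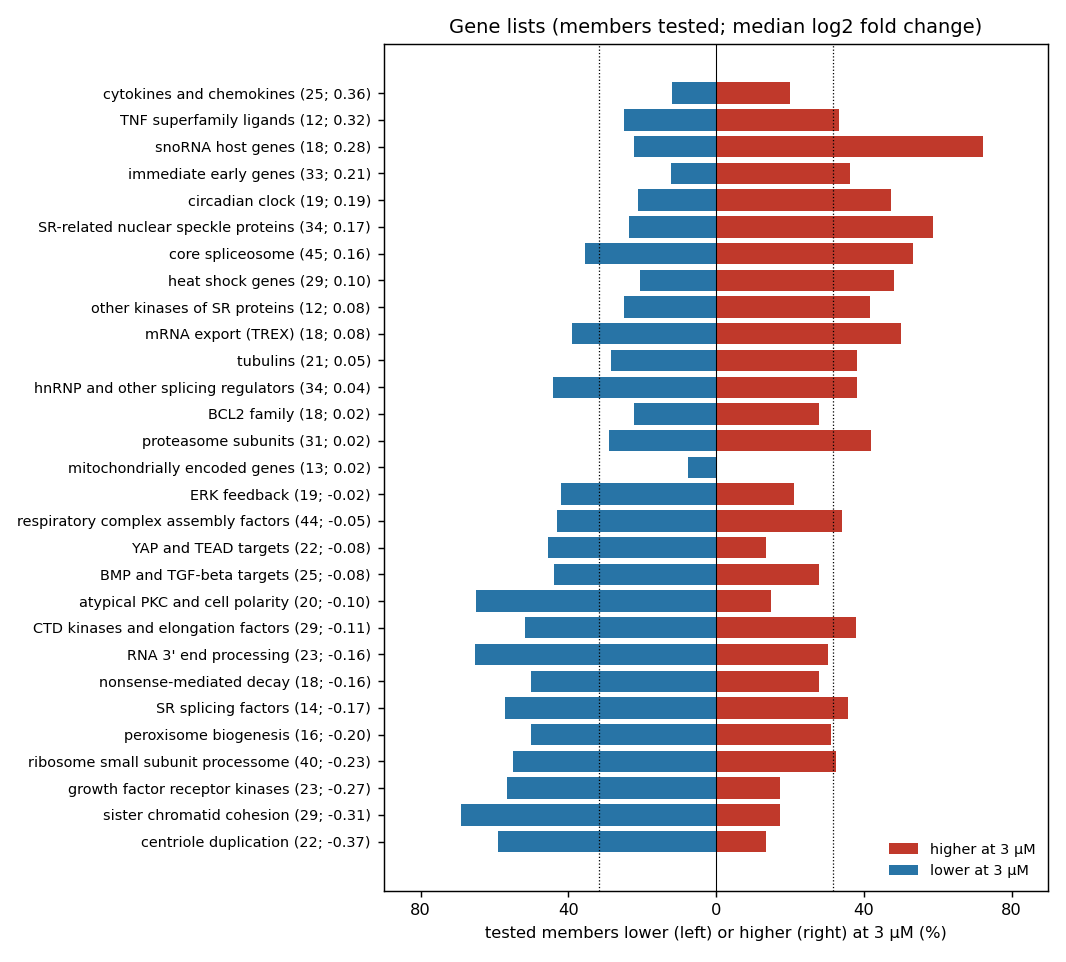
Percentage of the tested members of the 29 gene lists with at least 10 tested members, the usual scaling genes left out, that fell (left) or rose (right) at 3 µM against DMSO at 6 h, ordered by median log2 fold change, which stands after the number tested in each label. The dotted lines mark 31.6%, the share of all tested genes in each direction; among the lists drawn, snoRNA hosts reach farthest to the right, and sister chromatid cohesion to the left.

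Genes often used to scale expression did not all hold steady. Of 18 such genes 8 rose and 6 fell, beside 31.6% of all tested genes in each direction. TBP, the TATA-binding protein, averaged 16.5 CPM at 3 µM and 27.6 CPM in DMSO, a log2 fold change of -0.74 ± 0.04. PGK1, a glycolytic enzyme, and TFRC, the transferrin receptor, did not pass the test; TFRC passed without DMSO replicate 2 or 3 µM replicate 2, and under other scalings. All values are relative to the total RNA of a library, so a change in RNA per cell is not seen in them.

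At 6 h the 10 µM and 3 µM libraries were compared directly, and 5480 genes differed between the doses, which is 24.9% of tested genes. Of these, 2649 were higher (12%) and 2831 lower (12.9%) at 10 µM, with 173 higher and 27 lower at least 2-fold. With only the groups compared in the fit the count was 3379. IL8, a neutrophil chemokine, averaged 3.65 CPM in DMSO, 8.34 CPM at 3 µM and 39.3 CPM at 10 µM, and the dose difference was 2.24 ± 0.61 (adjusted p 0.021, edgeR). ATF3, a stress transcription factor, averaged 3.41 CPM in DMSO, 5.37 CPM at 3 µM and 16.5 CPM at 10 µM, a dose difference of 1.63 ± 0.47. HMOX1, heme oxygenase 1, averaged 14.4 CPM in DMSO, 19.3 CPM at 3 µM and 41.0 CPM at 10 µM. IL6 averaged 1.19 CPM in DMSO, 2.12 CPM at 3 µM and 6.14 CPM at 10 µM. None of these 4 genes passed the test at 3 µM against DMSO, though all 4 did with only the groups compared in the fit. Of 33 immediate early genes, 12 were higher and 0 lower at 10 µM than at 3 µM.

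Several of the near-silent genes were higher at 10 µM than at 3 µM, while no dose difference was detected for the CLK genes. SELPLG averaged 0.174 CPM in DMSO, 6.73 CPM at 3 µM and 13.4 CPM at 10 µM, with a dose difference of 0.99 ± 0.07. CMYA5 averaged 0.237 CPM in DMSO, 8.01 CPM at 3 µM and 15.6 CPM at 10 µM. DCAF4L1 averaged 0.288 CPM in DMSO, 10.3 CPM at 3 µM and 19.9 CPM at 10 µM. Of the near-silent coding genes, 1.64% reached 1 CPM at 10 µM and 6 h, and 12.4% of those within 5 kb of a same-strand expressed gene before them. CLK4 averaged 33.2 CPM at 10 µM and 33.1 CPM at 3 µM, a difference of 0.01 ± 0.04, and CLK1 88.1 CPM at 10 µM and 86.1 CPM at 3 µM, a difference of 0.03 ± 0.04. POLR2A averaged 122 CPM at 10 µM and 141 CPM at 3 µM (-0.20 ± 0.07), and HIF1AN, an inhibitor of hypoxia-inducible factor, 19.2 CPM at 10 µM and 30.4 CPM at 3 µM (-0.66 ± 0.05). BCLAF1 went the other way, with 350.3 CPM in DMSO, 213 CPM at 3 µM and 305 CPM at 10 µM.

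At 24 h the 3 µM effect was measured against DMSO libraries of that time, which share no library with the 6 h comparison. The effect differed between 24 h and 6 h for 10853 genes (49.3% of tested genes), with 5631 (25.6%) higher and 5222 (23.7%) lower at 24 h. Of the 1870 genes that rose at least 2-fold at 6 h, 69.9% were higher and 0.374% lower than DMSO at 24 h, beside 29.7% and 30.9% of all tested genes, and their median log2 fold change was 1.39 at 24 h and 1.92 at 6 h. Of the 1083 that fell at least 2-fold at 6 h, 61.9% were lower and 5.36% higher at 24 h, with medians of -0.41 at 24 h and -1.28 at 6 h. Of the 41 rises of expressed genes 40 were still higher at 24 h, and of the 486 falls of expressed genes 409 were still lower. A gene picked for a large change at 6 h is likely to show a smaller one elsewhere, so these medians hold that choice as well as time. Of the 1870 rises, 1671 were of genes under 1 CPM in DMSO at 6 h. Such genes could enter the test through a high 24 h group. Tested genes under 0.1 CPM in DMSO at 6 h had a median of 0.857 at 24 h, against 0.001 for all tested genes. The shares of all tested genes are therefore no like background for the rises.

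Several genes of the falling group were close to their DMSO level at 24 h. POLR2A averaged 360.2 CPM at 3 µM and 359.9 CPM in DMSO at 24 h, and its effect was 1.20 ± 0.10 higher on the log2 scale than at 6 h. RBM5 had a log2 fold change of 0.00 at 24 h and -1.50 ± 0.08 at 6 h. PRKCI, atypical protein kinase C iota, averaged 145 CPM at 3 µM and 156 CPM in DMSO at 24 h, and 29.4 CPM at 3 µM and 157 CPM in DMSO at 6 h. SFR1 averaged 10.2 CPM at 3 µM and 11.7 CPM in DMSO at 24 h. Among the raised near-silent genes, LTA stayed at 5.35 CPM at 3 µM at 24 h, against 6.43 CPM at 6 h, and its effect at 24 h was not detectably different (-0.21 ± 0.45, adjusted p 0.73, edgeR). SELPLG averaged 0.460 CPM at 3 µM at 24 h, against 6.73 CPM at 6 h. ZFAS1 rose further, with a log2 fold change of 1.53 at 24 h and 0.89 at 6 h, whereas SNHG1 was at 0.95 at 24 h and 1.89 at 6 h.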

How the data were processed

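Poly(A)-selected, strand-specific RNA libraries of CAL51 cells were sequenced in pairs, per the labels' protocols. The deposited values are whole counts of read pairs per gene symbol made by the authors; STAR, HTSeq, edgeR and the build hg19 (GRCh37) are named in the submitters' processing notes. How strand was set, which annotation release was counted and whether duplicates were kept is not given in the sources used here. Counts of overlapping or antisense genes are therefore uncertain. The 5 closing counter rows, which name no gene, were left out of totals and tests; they held 16.9 to 19.8% of the entries of the libraries compared.

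Counts of all 16 libraries in 6 groups were fitted with edgeR 4.0.16 (R 4.3.3, robust quasi-likelihood, TMM scaling, filterByExpr with a minimum count of 10 and total of 15), which kept 22007 of 55510 symbols. Standard errors are the absolute log2 fold change divided by the square root of F. Changed genes had an adjusted p under 0.05. CPM use TMM-scaled totals. The procedure was tested on simulated data. Alternatives used DESeq2 1.42.0, limma 3.58.1, other scalings, filters and sample sets, and libraries left out in turn.

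The genes, the 33 lists and the 6 marker lists were chosen with earlier results of these data known. Symbols of clones and small RNAs were left out of the rankings by change, dose and time. Named genes were the 12 largest rises and falls of at least 2-fold with average log2 CPM over 1, the 12 largest at 10 CPM or more in DMSO, the 8 largest gains and losses in CPM, up to 5 members of each list and the 5 largest differences of dose and time; other genes named were chosen after their values were seen, and some genes are not reported here. Gene positions, exon numbers and neighbours come from GENCODE 29 and start sequences from RefSeq, both matched by symbol, and neither is of the authors' build.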

Additional observations from a re-analysis of the deposited data

Results flagged for a closer look

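The effect of 3 µM CC-671 differed between 24 h and 6 h for 10853 genes in edgeR's test of the difference, and 5 of the largest differences upward and 4 of the largest downward are given as values, as the effect at 24 h minus that at 6 h on the log2 scale. SLC7A11, the cystine transporter, differed by 2.34 ± 0.20, with a log2 fold change of 1.00 at 24 h and -1.34 ± 0.14 at 6 h. NUPR1, a stress-induced chromatin protein, differed by 2.32 ± 0.22 and TRIB3, a pseudokinase induced by amino acid stress, by 2.15 ± 0.35. PRKCI differed by 2.31 ± 0.06 and DSCC1, of the complex that loads the replication clamp, by 2.25 ± 0.07, both having fallen at 6 h. In the other direction, SELPLG differed by -3.65 ± 0.40, CMYA5 by -3.23 ± 0.51, BAAT by -2.85 ± 0.40 and PTGDR2 by -2.29 ± 0.43. PTGDR2 averaged 1.52 CPM at 3 µM and 0.0991 CPM in DMSO at 24 h, and 7.99 CPM at 3 µM and 0.106 CPM in DMSO at 6 h.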

How the results depend on the processing

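No named gene changed direction under any alternative, and 20 of 239 named genes passed the test in some fits and not in others. IL8, ATF3, IL6 and HMOX1 were among them. Of the overall counts of changed genes, 53 of 56 under other tools, scalings, filters and sample sets and 41 of 41 with a library left out were within 1.5 times the reported ones. The exceptions were 539 genes higher and 585 lower at least 2-fold with the test limited to 1 CPM in 5 libraries, which leaves fewer low genes, and 3379 genes differing by dose with only the groups compared in the fit. Of the lists, 5 polarity genes, 5 YAP targets and 5 epithelial markers were higher without a scaling factor, and 7 BMP targets were lower at 1 CPM in 5 libraries. Without DMSO replicate 1, 3 cytokines, 5 circadian genes and 1 growth factor receptor kinase were higher, and 0 epithelial and 1 mesenchymal marker were lower; without 3 µM replicate 2 these marker counts were also 0 and 1. DESeq2 called 13152 genes and limma-voom 13945. With a library left out, the changed genes at 3 µM and 6 h numbered 12408 to 13525, the higher ones 6082 to 6742, the lower ones 6286 to 6783, those at least 2-fold higher 1721 to 1871 and at least 2-fold lower 1006 to 1160. The dose differences numbered 3984 to 5392 and the time differences 9562 to 10773. Replicate numbers were not used to pair the samples. The deviations of same-numbered 3 µM and DMSO libraries at 6 h correlated at -0.217 and -0.269. Those of 3 µM and 10 µM libraries at 6 h correlated at 0.0898, 0.271 and -0.0153. The deviations of 2 DMSO libraries from their mean mirror each other, so these values cannot decide whether the numbers pair. A fit with the replicate block called 13658 genes, 6827 higher and 6831 lower, with 5212 dose and 10720 time differences. The median log2 fold change of all genes was 0.02 as reported, 0.03 with RLE size factors and 0.04 without a scaling factor. With 2 DMSO libraries the spread of that group alone is poorly known and is borrowed from all groups.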
